A study of Mus musculus with 2 samples.

Results

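The genes that store iron, carry it, release it from haem or bind zinc and copper were compared between 2 lens mRNA libraries of C57BL/6 mice at postnatal day 60. The set was chosen by name, with earlier results of these data known, and has 10 genes. Of these, 9 were in the deposited table of 21673 genes: Fth1, Ftl1, Tfrc, Cp, Heph, Hmox1, Hmox2, Mt1 and Mt2. Trf, the gene of transferrin, was not analysed here. The library called CKO came from mice with 2 floxed copies of Msx2 and 1 Le-Cre transgene (Le-Cre+/- Msx2fl/fl), and the library called WT from Msx2fl/fl mice without Cre. Both libraries thus carry the floxed alleles, and the presence of Cre differs along with the loss of Msx2, a homeobox transcription factor. Le-Cre acts in the lens and in other eye tissues that form from the surface ectoderm. The sources used here do not give the number of animals behind a library.

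In the CKO library both metallothionein genes stood far higher, Mt2 by 16.1-fold and Mt1 by 7.06-fold. Hmox1, the inducible haem oxygenase gene, was 2.68-fold lower and Heph, the gene of the membrane ferroxidase hephaestin, 4.11-fold lower. The ferritin light chain gene Ftl1 was 1.91-fold lower while the heavy chain gene Fth1 was within 1.1-fold, so the ratio of their messages differed. Scaled to library totals alone, Hmox1 was 1.44-fold lower, Heph 2.22-fold lower (neither past the size rule used here) and Ftl1 1.03-fold lower, while Mt1 and Mt2 were still far higher. Neither genotype was replicated, so every difference is one between these 2 libraries and was not set against variation between animals. Sex-linked genes differed between the libraries too, so genotype cannot be told apart from sex.

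Ferritin is a hollow shell of heavy and light chains that holds iron as a mineral, and the heavy chain oxidises the iron that enters. Cells take up iron bound to transferrin through the transferrin receptor, and export it through ferroportin with the help of a ferroxidase. Haem oxygenases open the haem ring and free its iron. Metallothioneins are small cysteine-rich proteins that bind zinc and copper, and their genes are switched on by metals, glucocorticoids and oxidative stress. The lens has no blood vessels of its own and receives metals from the fluids around it.

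Ferritin and transferrin receptor messages carry iron responsive elements, short hairpins bound by iron regulatory proteins when iron is scarce. That binding blocks ferritin translation and protects the receptor message from decay. The hairpins of the 3 members that hold one are shown because they are the sequence these genes have in common. Each is 30 bases from the GENCODE M21 transcripts of GRCm38, 5′ to 3′ with T for U, and capitals mark the bulged C and the loop CAGTGN. The Fth1 site lies in the 5′ UTR at chr19:9982732-9982761 on the plus strand. The Ftl1 site lies in the 5′ UTR at chr7:45459778-45459807 on the minus strand. The first Tfrc site lies in the 3′ UTR at chr16:32631219-32631248 on the plus strand.
Fth1: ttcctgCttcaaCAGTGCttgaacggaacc
Ftl1: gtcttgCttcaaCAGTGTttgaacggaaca
Tfrc: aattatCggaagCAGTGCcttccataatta
The search asked for a C, a stem of 5 bases, the loop CAGTGN with any base but G at its end, and 5 bases that pair with the stem. It was run in the sense direction on 1 transcript of each of 21899 protein-coding genes. Matches fell in the 5′ UTR of 17 genes (0.0776%) and in the 3′ UTR of 85 genes (0.388%). The Tfrc transcript held 4 matches, all in its 3′ UTR. The other members had none of these letters in the transcript searched. A match is a description of the sequence, and translation and message decay were not measured.

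The metallothionein genes lie side by side on chromosome 8, and their promoters are shown because Mt1 and Mt2 had the largest folds among the members. Each window runs from 250 bases before to 50 bases after the RefSeq start on GRCm38.p6, plus strand. The Mt2 window is chr8:94172368-94172667, the Mt1 window chr8:94178839-94179138 and that of their neighbour Mt3 chr8:94152357-94152656. Capitals mark the core of the metal response element, which is the binding site of the zinc-sensing factor MTF1, searched as TGCGCNC or TGCACNC on both strands.
Mt2: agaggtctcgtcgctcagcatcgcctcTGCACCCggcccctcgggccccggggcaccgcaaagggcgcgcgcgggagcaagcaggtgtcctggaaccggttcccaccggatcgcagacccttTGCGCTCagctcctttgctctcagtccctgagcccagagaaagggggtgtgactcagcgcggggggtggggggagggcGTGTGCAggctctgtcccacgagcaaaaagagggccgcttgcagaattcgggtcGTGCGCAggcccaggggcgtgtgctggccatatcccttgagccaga
Mt1: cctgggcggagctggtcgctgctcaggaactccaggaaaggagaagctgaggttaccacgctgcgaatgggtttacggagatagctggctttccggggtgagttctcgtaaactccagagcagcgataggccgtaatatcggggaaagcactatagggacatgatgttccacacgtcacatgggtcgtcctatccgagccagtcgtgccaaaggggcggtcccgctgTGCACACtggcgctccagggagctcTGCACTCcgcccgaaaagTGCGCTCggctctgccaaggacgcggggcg
Mt3: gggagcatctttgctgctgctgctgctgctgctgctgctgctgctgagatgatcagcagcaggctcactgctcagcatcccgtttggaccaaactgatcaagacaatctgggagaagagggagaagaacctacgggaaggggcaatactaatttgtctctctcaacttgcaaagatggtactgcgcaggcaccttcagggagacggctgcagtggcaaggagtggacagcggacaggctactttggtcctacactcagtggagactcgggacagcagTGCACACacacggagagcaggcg
The core occurred 4 times in the Mt2 window, 3 times in the Mt1 window and 1 time in the Mt3 window, with no overlap between sites. Of 32851 promoter windows of the same length, 25.7% held at least 1 such core, 1.97% at least 3 and 0.517% at least 4. In the Mt2 window 3 of the 4 cores lay before the RefSeq start used, and in the Mt1 window 1 of the 3. Other starts of these genes were not searched, so the positions hold for that start only. Windows were also at hand for 5 other members. Those of Cp, Fth1, Ftl1 and Hmox2 held no core, and 1 of the Tfrc windows held 2. These matches show letters, not binding.

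The values are FPKM, fragments per kilobase of gene relative to library size, a level that can be compared between genes. Each value corresponded to a whole number of reads, and the CKO library held 17165504 of them and the WT library 20784737. Msx2 itself had 0.0392 FPKM (3 reads) in CKO and 6.21 FPKM (311 reads) in WT. Sex-linked genes also differed: Xist had 16251 reads in CKO and 35 in WT, and the Y-linked gene Eif2s3y had 0 in CKO and 819 in WT. By these genes the CKO library reads as female and the WT library as mainly male. Sex and genotype thus cannot be told apart in any comparison here. A gene was measured if its mean over both libraries reached 1 FPKM, which 10757 genes and all 9 members found did. The size rule asked for a 2-fold difference in FPKM + 1. Among the measured genes 8.76% passed it, 5.83% higher in CKO and 2.93% lower. Folds below are plain ratios of FPKM with 95% intervals that cover counting error only. In bulk lens RNA, fewer cells of a type and less RNA per cell cannot be told apart.

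By the size rule 4 of the 9 members passed, Mt1 and Mt2 higher and Hmox1 and Heph lower, against the 8.76% of all measured genes. Their median log2 ratio was -0.37, beside -0.02 over all measured genes. With so few members, chosen with earlier results of these data known, the count describes these genes only. In CKO the order of levels was Ftl1, Fth1, Hmox1, Mt1, Mt2, Cp, Hmox2, Tfrc and Heph, and the counting intervals of Mt1 and Mt2 overlapped. In WT the order was Ftl1, Fth1, Hmox1, Cp, Hmox2, Mt1, Tfrc, Mt2 and Heph. There the intervals of Mt1 and Tfrc overlapped, and so did those of Mt2 and Heph. The metallothionein genes stood above Cp and Hmox2 in CKO and below them in WT, while the ferritin genes and Hmox1 held the first 3 places in both. The summed reads of the 9 members made up 0.283% of the CKO library (exact binomial interval 0.281 to 0.286) and 0.228% of the WT library (0.226 to 0.230). Their summed deposited FPKM went the other way, at 1744 in CKO and 2637 in WT. Scaled to library totals alone, the sums were 2374 FPKM in CKO and 1937 FPKM in WT, so the direction depends on the scaling.

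**Figure D1:**
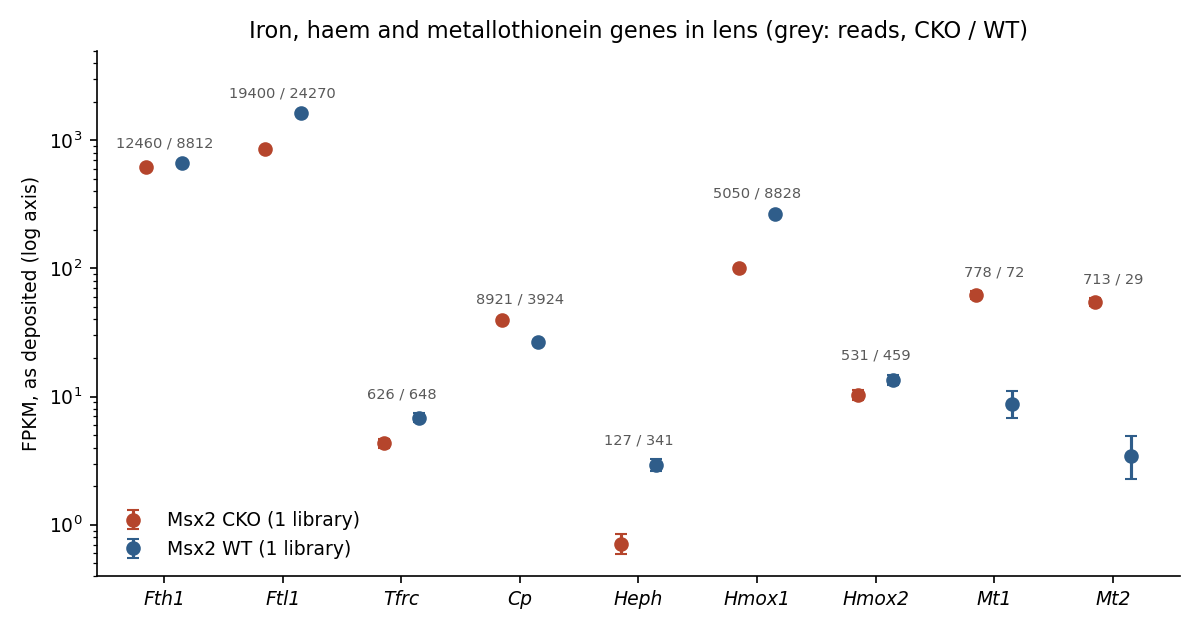
FPKM as deposited (log axis) of the 9 members in the CKO library (red, left) and the WT library (blue, right), 1 library each, with bars for the exact Poisson 95% counting interval and reads in grey. Mt1 lies at 61.7 FPKM in CKO and 8.73 in WT, Mt2 at 54.9 FPKM in CKO and 3.42 in WT, and Hmox1 and Heph lie lower.

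The ferritin genes were the most abundant members. Ftl1, which encodes the light chain, had 857 FPKM in CKO (19400 reads) and 1641 FPKM in WT (24270 reads). It was 1.91-fold lower in CKO (1.88 to 1.95), and its log2 ratio of -0.94 lay just inside the 2-fold limit. Among all genes in the table it ranked 28th by FPKM in CKO and 23rd in WT. Fth1, which encodes the heavy chain with the ferroxidase site, had 616 FPKM in CKO (12460 reads) and 667 FPKM in WT (8812 reads), 1.08-fold lower in CKO (1.05 to 1.11), a direction that turned under 2 other scalings. The ratio of Ftl1 to Fth1 inside a library does not depend on how the libraries were scaled. It was 1.39 in CKO (1.36 to 1.42) and 2.46 in WT (2.40 to 2.52), which is 0.565 times as large in CKO (0.547 to 0.584). Light chain message thus exceeded heavy chain message in both libraries, and by less in CKO. Mouse ferritin genes have many processed copies, so reads could be divided among them. Of such copies in the table, Gm10116, which GENCODE M21 names Ftl1-ps1, had 9.38 FPKM in CKO and 15.1 FPKM in WT, and Ftl2-ps and Fth-ps2 each had at most 4 reads per library.

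Of the genes of iron uptake, Tfrc, the transferrin receptor gene, had 4.33 FPKM in CKO (626 reads) and 6.86 FPKM in WT (648 reads). It was 1.58-fold lower (1.42 to 1.77) and did not pass the size rule. The ratio of Tfrc to Fth1 was 0.00703 in CKO and 0.0103 in WT, 0.683 times as large in CKO (0.610 to 0.765). The receptor message was thus lower against Fth1, whatever the scaling, and lower by FPKM with the deposited scaling but not with scaling to library totals alone (log2 ratio 0.19).

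The ferroxidase genes Cp and Heph went in opposite directions. Both proteins oxidise iron as it leaves the cell, Cp encoding ceruloplasmin, a copper protein that is secreted or membrane-anchored, and Heph its membrane-bound relative. Cp had 39.9 FPKM in CKO (8921 reads) and 26.9 FPKM in WT (3924 reads), 1.49-fold higher (1.43 to 1.54) and within the size rule. Heph had 0.709 FPKM in CKO (127 reads) and 2.92 FPKM in WT (341 reads), 4.11-fold lower (3.34 to 5.08). Cp was far more abundant than Heph in both libraries, by 56.3-fold in CKO (47.2 to 67.6) and 9.22-fold in WT (8.25 to 10.3). That ratio was 6.10 times as large in CKO (4.96 to 7.51). Both calls changed under library totals alone, where Cp passed the size rule at a log2 ratio of 1.42 and Heph, at -0.68, did not. Heph had the lowest FPKM of the members in both libraries, though in WT its counting interval overlapped that of Mt2. It lies on the X chromosome. Cp overlaps Hps3 on the other strand by 13201 bases, and the use of strand in counting is not stated, so reads of Hps3 (365 in CKO and 207 in WT) could not be fully separated from it. Heph overlaps the processed pseudogenes Rpl17-ps8 (621 bases, 9 reads in CKO and 2 in WT) and Gm14935 (1708 bases) on its own strand. It also overlaps Hsf3 on the other strand by 936 bases. Reads of Gm14935 and Hsf3 were not available.

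Hmox1 was the third most abundant member, at 99.998 FPKM in CKO (5050 reads) and 268 FPKM in WT (8828 reads). It ranked 231st of all genes in CKO and 107th in WT, and its log2 ratio of -1.41 was the 142nd lowest of the 10757 measured genes. Under library totals alone it no longer passed the size rule, at a log2 ratio of -0.53. Its product is the haem oxygenase that cells induce under haem and oxidative load, and its gene is held down by the haem sensor BACH1 and switched on by NRF2. Hmox2, the constitutive enzyme, had 10.2 FPKM in CKO (531 reads) and 13.6 FPKM in WT (459 reads), 1.32-fold lower (1.17 to 1.502), a direction that turned under library totals alone. The inducible form exceeded the constitutive form 9.76-fold in CKO (8.92 to 10.7) and 19.7-fold in WT (17.96 to 21.7). That ratio was 0.494 times as large in CKO (0.434 to 0.563). Blvra, the gene of biliverdin reductase A, which acts on the product of haem oxygenase, had 4.65 FPKM in CKO and 5.62 FPKM in WT. The ratio of Hmox1 to Blvra was 21.5 in CKO and 47.6 in WT, so Hmox1 was lower also relative to the next enzyme of the pathway. Hmox2 overlaps Cdip1 on the other strand by 16395 bases (905 reads in CKO and 722 in WT), and its value carries the same uncertainty as that of Cp.

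**Figure D2:**
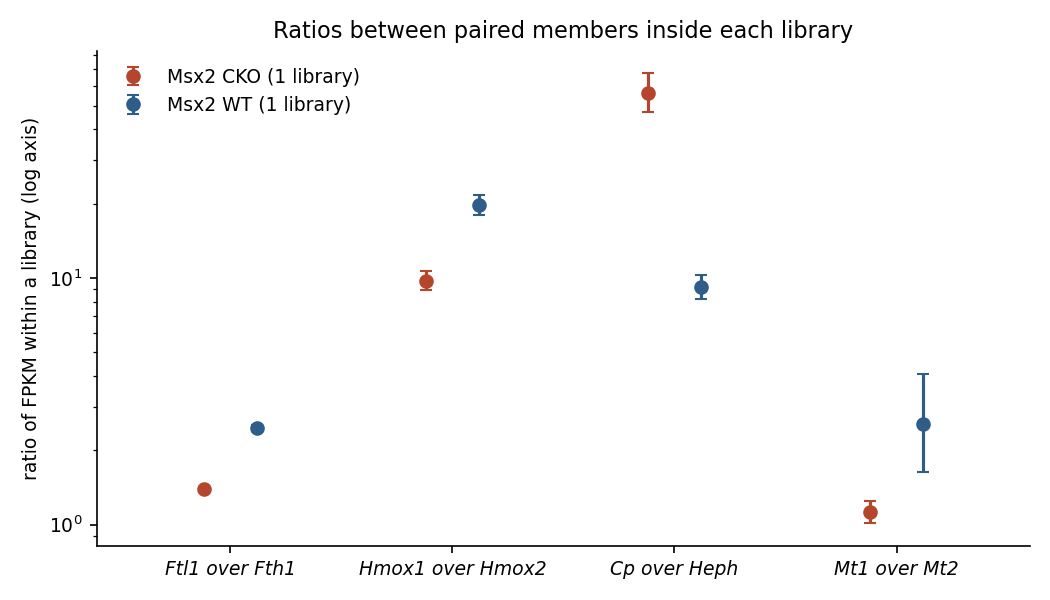
Ratio of FPKM between paired members inside each library (log axis), CKO in red on the left and WT in blue on the right, with exact 95% counting intervals. Ftl1 over Fth1 and Hmox1 over Hmox2 are smaller in CKO (1.39 and 9.76) than in WT (2.46 and 19.7), and Cp over Heph is larger in CKO (56.3) than in WT (9.22).

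Mt1 had 61.7 FPKM in CKO (778 reads) and 8.73 FPKM in WT (72 reads), 7.06-fold higher (5.54 to 9.12). Mt2 had 54.9 FPKM in CKO (713 reads) and 3.42 FPKM in WT (29 reads), 16.1-fold higher (11.1 to 24.2). Both encode the metallothioneins found in most tissues. Among all genes Mt1 ranked 344th in CKO and 2780th in WT, and Mt2 394th in CKO and 5841st in WT. Their log2 ratios of 2.69 and 3.66 were the 98th and the 41st highest of the 10757. The genes differed less from each other in CKO, where Mt1 was 1.12 times Mt2 (1.01 to 1.25), than in WT, where it was 2.56 times (1.64 to 4.08). The ratio of Mt1 to Mt2 was 0.439 times as large in CKO (0.282 to 0.684). Their summed reads made up 0.00869% of the CKO library (0.00825 to 0.00914) and 0.000486% of the WT library (0.000396 to 0.00059).

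Mt3, a member of the same family best known from brain, was also higher, at 10.7 FPKM in CKO (135 reads) and 0.974 FPKM in WT (8 reads). Its fold was 11.0 (5.44 to 26.1). Relative to Mt3, Mt1 stood at 5.74 in CKO and 8.97 in WT, and Mt2 at 5.11 in CKO and 3.51 in WT. The counting intervals of the change in those ratios, 0.302 to 1.36 and 0.652 to 3.26, both include 1, so at this depth no difference in fold between Mt3 and either gene was detectable. The start of Mt3 lies 26.5 kb and that of Mt2 6.47 kb before the start of Mt1. The table held 8 genes whose first coordinates lie within 200 kb of Mt1, and 7 were measured. The 4 that are not metallothionein genes were Nudt21, Ogfod1, Bbs2 and Nup93, with log2 ratios from -0.19 to 0.69, and none passed the size rule with the deposited scaling. Under library totals alone Bbs2 passed at a log2 ratio of 1.37, where Mt1 stood at 3.52, Mt2 at 4.43 and Mt3 at 3.19.

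**Figure D3:**
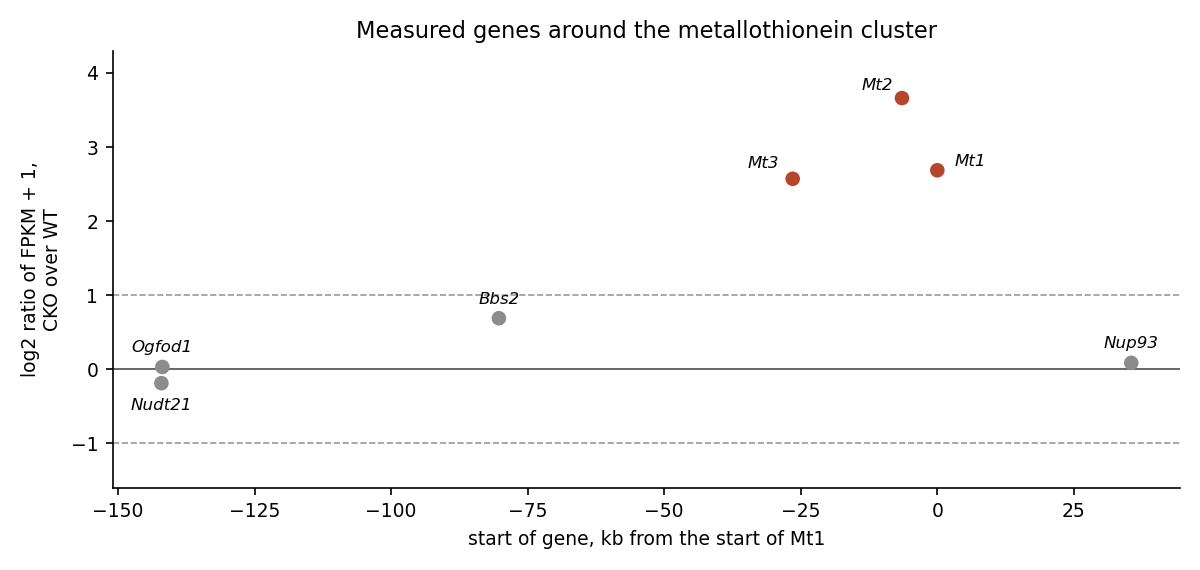
Log2 ratio of FPKM + 1, CKO over WT, against distance in kb from the start of Mt1, for the 7 measured genes near it; dashed lines mark 2-fold. Mt1, Mt2 and Mt3 (red) lie between 2.57 and 3.66, and the 4 neighbours (grey) between -0.19 and 0.69.

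Markers of other cell types differed between the same libraries. Summed levels and the genes named by level are over all markers of a list in the table, measured or not. All 16 measured photoreceptor markers were higher in CKO, and the 17 in the table summed to 949 FPKM in CKO and 24.5 FPKM in WT. The least abundant of the 17 was Opn1sw (1.51 FPKM in CKO and 0.333 in WT). Of 11 measured markers of Müller glia and astrocytes 7 were higher and none lower, and the 12 in the table summed to 1885 FPKM in CKO and 1749 in WT, from Clu (482 FPKM in CKO and 585 in WT) down to Kcnj10 (0.855 FPKM in CKO and 0.0363 in WT). Of 8 measured leukocyte and macrophage markers 7 were higher and none lower, and the 17 in the table summed to 51.97 FPKM in CKO and 10.8 in WT, from Lyz2 (9.63 FPKM in CKO and 2.07 in WT) down to Ptprc (0.0304 FPKM in CKO and 0.025 in WT). None of the markers of these 3 lists found in the table was at 0 in either library. Of the pigment epithelium, iris and ciliary body markers, 2 of 6 measured were lower, and the 15 in the table summed to 16.6 FPKM in CKO and 36.5 in WT. They ran from Car14 (5.70 FPKM in CKO and 19.9 in WT) down to Slc45a2 (3 reads in CKO and 1 in WT). The lower ones were Car14 and Oca2 (7 reads in CKO and 151 in WT). Another 4 measured did not pass, and 2 of them had log2 ratios above 0. Of the ocular surface markers 2 of 6 measured were higher, and the 9 in the table summed to 419 FPKM in CKO and 79.4 in WT, from Aldh3a1 (169 FPKM in CKO and 11.6 in WT) down to Dsg1a (2 reads in CKO and 3 in WT). The other higher one was Lypd2, named after its values were seen, with 165.9 FPKM in CKO (2633 reads) and 0.193 FPKM in WT (2 reads), which had the highest log2 ratio of the 10757 measured genes. Krt14 was at 0 reads in CKO and 2 in WT. The summed erythroid markers stood at 10.8 FPKM in CKO and 11.9 in WT, most of it Bpgm (7.90 FPKM in CKO and 10.3 in WT), and the globin gene Hba-a2 had 3 reads in CKO and 0 in WT. Under library totals alone 4 of the 6 ocular surface markers were higher and 1 of the 6 pigment epithelium, iris and ciliary body markers lower. The part of any of these cells in the metallothionein, Cp or Heph values was not tested.

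Lens fibre and epithelial genes were abundant in both libraries, which fits the labelled tissue. Of 13 measured, 8 were lower and none higher in CKO, with a median log2 ratio of -1.21 and a summed 120046 FPKM in CKO against 291200 FPKM in WT. They ran from Cryaa (85420 FPKM in CKO and 215436 in WT) down to Cdh1 (11.6 FPKM in CKO and 13.9 in WT). Hmox1, at -1.41, Heph, at -1.20, and Ftl1, at -0.94, thus differed by amounts inside the range of these genes, which was -2.33 to -0.24. Under library totals alone 2 of the 13 lens genes were lower and none higher, 4 had ratios above 0, and their median was -0.32 with a range of -1.45 to 0.58. Hmox1, Heph and Ftl1 lay inside that range too. The part of lens cell content in those values was not tested.

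The size of these differences depends on the scaling of the libraries. The deposited FPKM refer to a library of 1.36 times the summed reads in CKO and 0.735 times in WT. Scaling to library totals alone raises the median log2 ratio of all measured genes by 0.70, and scaling to totals without crystallins raises it by 0.22. Of the calls made with the deposited scaling 66.6% were of genes higher in CKO, against 95.9% under totals alone and 78.2% under totals without crystallins. Mt1 and Mt2 passed under each of the 4 scalings, and under totals alone they were 13.1-fold and 29.8-fold higher. Under totals alone Hmox1 was 1.44-fold lower and Heph 2.22-fold lower, neither passed, and Cp was 2.75-fold higher and passed. The 3 members past the rule there, Mt1, Mt2 and Cp, were all higher, as were 19.5% of measured genes. The directions of Fth1, Tfrc and Hmox2 turned under totals alone, to log2 ratios of 0.77, 0.19 and 0.45, and that of Fth1 also under totals without crystallins, to 0.13. Ftl1 was 1.03-fold lower under totals alone. Under totals without crystallins, and under median-of-ratios scaling, Mt1, Mt2, Hmox1 and Heph passed, among 11% and 8.8% of measured genes. Median-of-ratios scaling nearly coincides with the deposited one (log2 shift -0.014), so it adds little as a separate setting.

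**Figure D4:**
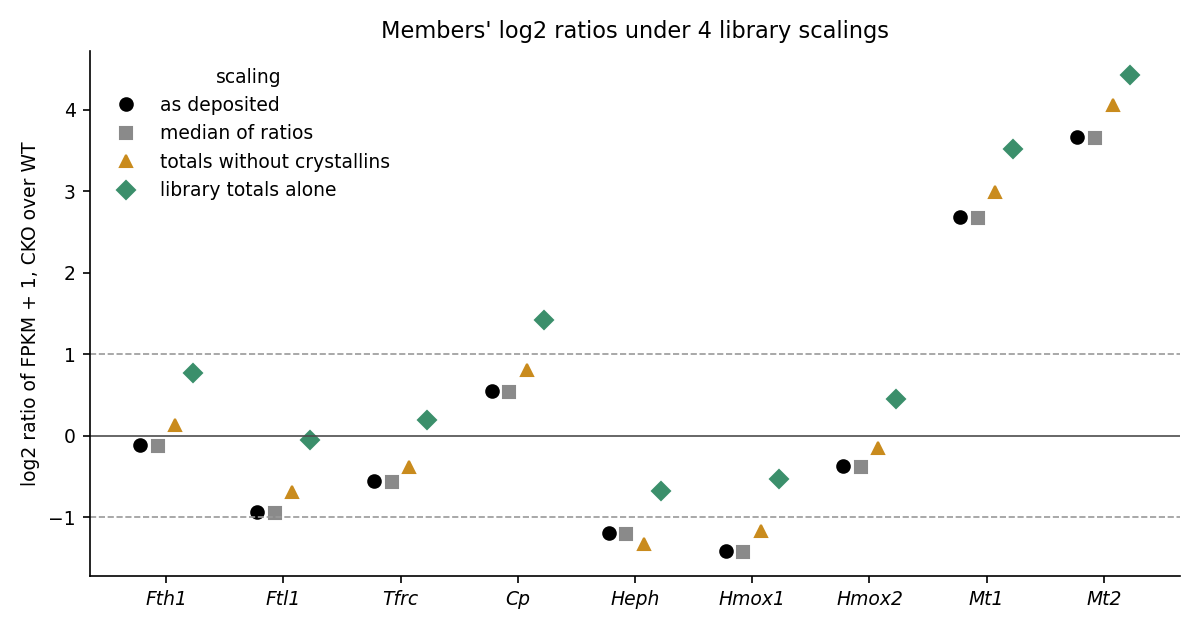
Log2 ratio of FPKM + 1, CKO over WT, for each member under 4 library scalings; dashed lines mark 2-fold. Mt1 and Mt2 stay above 2-fold under all 4, and Hmox1 and Heph lie below -1 under 3 and between -1 and 0 under library totals alone. The deposited and median-of-ratios scalings nearly coincide.

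Among 30 further genes of iron transport and its control, 28 were in the table and 18 measured, of which 3 were higher and 1 lower. Over all measured genes 5.83% were higher and 2.93% lower. The median log2 ratio of the list was 0.14. The largest fold of the list was that of Lcn2, the gene of lipocalin 2, which binds iron-loaded siderophores, at 33.4 FPKM in CKO (2049 reads) and 0.225 FPKM in WT (9 reads). Steap4, a metalloreductase gene, had 2.51 FPKM in CKO (185 reads) and 0.0623 FPKM in WT (3 reads), 40.3-fold higher with a wide interval (13.6 to 197). Hfe, whose product binds the transferrin receptor, was 2.87-fold higher (2.21 to 3.76). Cybrd1, a ferric reductase gene, was the lower one, at 1.06 FPKM in CKO and 4.93 FPKM in WT, 4.66-fold lower (3.82 to 5.72). With scaling to totals alone 6 of the 18 passed, all higher in CKO, as were 19.5% of all measured genes.

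Slc40a1 encodes ferroportin, the iron exporter that works with Cp and Heph. Its mean fell short of 1 FPKM, with 0.452 FPKM in CKO (95 reads) and 1.35 FPKM in WT (186 reads), a ratio of 0.334 (0.258 to 0.429). The messages that sense iron were close between the libraries with the deposited scaling. Aco1 and Ireb2, which encode the iron regulatory proteins, had 3.73 and 6.90 FPKM in CKO, against 3.99 and 7.48 FPKM in WT. Fbxl5, which marks the second of them for degradation, had 6.11 FPKM in CKO and 5.12 FPKM in WT. Scaled to library totals alone, Aco1 was 1.73-fold, Ireb2 1.71-fold and Fbxl5 2.21-fold higher in CKO. The median log2 ratio of all measured genes was 0.68 under that scaling. Ncoa4, the receptor for ferritin breakdown, had 5.24 FPKM in CKO and 6.81 in WT, and Slc11a2, the divalent metal transporter gene, 2.24 FPKM in CKO and 2.19 in WT. Slc39a14, an importer of zinc and iron, had 1.43 FPKM in CKO and 1.14 FPKM in WT. Steap3, the endosomal reductase gene, had 0.472 FPKM in CKO and 0.607 in WT, and Hamp, the hepcidin gene, 2 reads in each library, too few to compare.

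Of 26 genes of haem synthesis, breakdown and transport all were in the table, 18 were measured and 1 passed, Alad, which was lower. Their median was 0.06, and 8.76% of all measured genes passed. Alad encodes the second enzyme of haem synthesis and was the most abundant of the list, at 70.7 FPKM in CKO (3091 reads) and 146 FPKM in WT (4181 reads), 2.07-fold lower (1.98 to 2.17). It came within 2-fold under library totals with or without crystallins, with log2 ratios of -0.80 without them and -0.16 with them. The first and last enzymes of the pathway did not follow it: Alas1 had 2.59 FPKM in CKO and 2.48 FPKM in WT, and Fech 6.74 FPKM in CKO and 7.34 in WT. Alas2, the erythroid form, had 4 reads in CKO and 5 in WT, and its GENCODE transcript also held an iron responsive element in the 5′ UTR, as did that of Slc40a1. Slc48a1, a haem importer gene, had 16.9 FPKM in CKO and 14.3 FPKM in WT, and Mfsd7b, an older symbol of the haem exporter gene Flvcr1, 2.30 FPKM in CKO and 1.43 in WT. Por, which passes electrons to haem oxygenase, had 8.27 FPKM in CKO and 8.67 in WT, and Blvrb 1.26 FPKM in CKO and 0.801 in WT.

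Of 25 further genes of metallothionein, zinc and copper handling 20 were measured, with a median of 0.07. Among these 3 were higher and none lower, against 5.83% and 2.93% of all measured genes. Beside Mt3 the higher ones were Slc30a4, a zinc exporter gene, 2.87-fold higher (2.50 to 3.32), and Slc31a2, a copper transporter gene, 2.35-fold higher (1.96 to 2.82). Mtf1, whose product binds the metal response element, had 1.37 FPKM in CKO and 1.35 FPKM in WT. Slc30a1, the zinc exporter gene that MTF1 also controls, had 2.25 FPKM in CKO and 1.59 FPKM in WT, a fold of 1.42 (1.15 to 1.77) that did not pass. Its interval does not overlap those of the Mt1 and Mt2 folds, which were larger. These intervals cover counting error only, and the part of MTF1 or of zinc in these values was not tested.

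Of 14 genes listed as NRF2 and BACH1 regulators and targets, Hmox1 apart, 13 were measured, 1 was higher and 1 lower, with a median of 0.18. Over all measured genes 8.76% passed the size rule. Srxn1, the sulfiredoxin gene, was higher, at 8.89 FPKM in CKO and 2.58 FPKM in WT. Gclc, which encodes the catalytic subunit of the first enzyme of glutathione synthesis, was lower, at 23.6 FPKM in CKO and 63.7 in WT. Gclc, like Hmox1, was within 2-fold under library totals alone. Nfe2l2, which encodes NRF2, had 4.60 FPKM in CKO and 3.61 FPKM in WT, Bach1 1.23 FPKM in CKO and 0.965 in WT, and Nqo1, a common NRF2 target, 2.95 FPKM in CKO and 1.90 in WT. Nqo1 was 1.55-fold higher (1.09 to 2.25) and did not pass the size rule. Hmox1 and Nqo1 thus pointed in opposite directions with the deposited scaling. They did so under library totals alone too, at log2 ratios of -0.53 and 1.07.

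**Figure D5:**
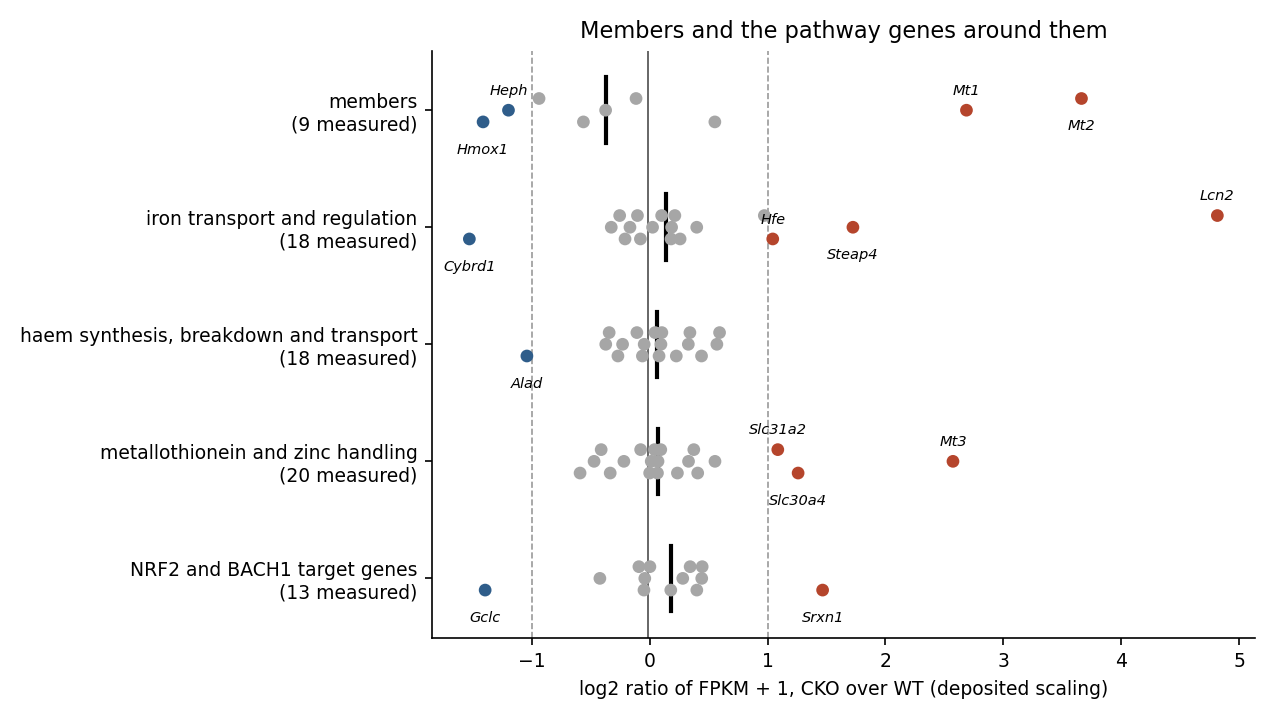
Log2 ratio of FPKM + 1, CKO over WT, of the 9 members and of the measured genes of 4 pathway lists, 1 point per gene (red higher, blue lower, grey within 2-fold), with a black bar at each list's median and a thin line at the median of all measured genes. List medians lie between 0.06 and 0.18, the members' median at -0.37, and Lcn2 at 4.81 is the highest point.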

How the data were processed

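One table was deposited for both libraries, each from lens RNA extracted and sequenced commercially, per the labels' protocols. Per the submitters' processing notes the tools were DESeq2 1.10.1, STAR 2.5.1b and HTSeq 0.6.0, with no roles stated. No genome build is given in those sources. The deposited values are FPKM, a unit inferred from the values, because value times the gene length deposited beside it was a whole multiple of 1 step in each library. Taken as 1 read, that step gave whole reads for 100% of values within 0.001 read. Of 21673 identifiers 99.5% were in GENCODE M21 (GRCm38), all on the same chromosome, so coordinates are read as GRCm38. Member coordinates used for overlaps and neighbours are those of the table.

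Log2 ratios are CKO over WT after adding 1 FPKM, which understates the change of low genes. No test across samples was possible. Intervals at 95% are exact (Clopper-Pearson for folds and shares, Poisson for levels), except that of a change in a ratio between 2 genes, a normal approximation on the log scale; 8 such ratios were computed. All cover counting error only. The members and lists were chosen with earlier results of these data known. All members were named, as were list genes past the size rule, 24 genes that act on or with a member, and the extremes of each marker list by level, except 1 that is not reported here. Older symbols were matched through RefSeq synonyms (Hjv, Flvcr1 and Flvcr2). Simulated reads with 200 changed genes were used to check the calculations, and 4 scalings, 2 pseudocounts and 3 filters were compared. Python 3.11.15, scipy 1.17.1 and pandas 2.3.3 were used.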

Additional observations from a re-analysis of the deposited data

How the results depend on the processing

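The counts over all genes, the members and the 4 pathway lists were recomputed with a pseudocount of 0.1 FPKM, 3 other scalings, a minimum of 10 reads in place of the level filter and no filter. The marker lists and single genes were recomputed with the pseudocount and the scalings, and the genes near Mt1 likewise. The number of genes past the size rule among all measured genes was 942, and 2187 under library totals alone. Under that scaling the haem list had 4 genes past the rule in place of 1, the zinc and metallothionein list 7 in place of 3, and the NRF2 and BACH1 list 5 in place of 2. Under totals without crystallins the haem list had 0. In each of these the scaling itself moves every ratio by the same amount before the pseudocount is added. Also under totals alone 2 lens markers in place of 8, 4 ocular surface markers in place of 2 and 1 pigment epithelium, iris and ciliary body marker in place of 2 passed. The other counts over all genes, the members and the pathway lists lay within 1.5 times the main ones, and 3 to 4 members passed under every setting. No member past the size rule changed sign under any setting. The log2 ratio of Heph, a scarce gene, was -1.20 with 1 FPKM added and -1.90 with 0.1 added. No paired analysis was possible because each genotype has 1 library, and for the same reason no library could be left out. Depth limits Mt2 (29 reads in WT), Mt3 (8 reads in WT) and Steap4 (3 reads in WT), whose folds have wide intervals.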
